A study of Homo sapiens with 26 samples.

Results

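GIPR and AOC1 are 2 genes whose RNA rose strongly in MV4-11 leukaemia cells kept in quizartinib. They were selected on that rise from 16342 gene entries present in both experiments. It was the measured change with quizartinib, alone or with dexamethasone, over DMSO and in survivors over untreated cells. The choice used no threshold, and the values behind it are given below as a description without a test.

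The study sequenced RNA of MV4-11 in 26 libraries. This established human cell line comes from an acute myeloid leukaemia and depends on a mutated, active FLT3 kinase. A drug experiment of 18 libraries held 6 groups of 3. Its groups were 10 nM quizartinib, a FLT3 kinase inhibitor, with 100 nM dexamethasone, a synthetic glucocorticoid, for 5 d (the dexamethasone added on day 3); 10 nM quizartinib alone for 5 d; the combination for 48 h; quizartinib alone for 48 h; 100 nM dexamethasone alone for 48 h; and DMSO, the vehicle, for 48 h. The 5 d cells are set against 48 h DMSO cells here, so drug and time in culture cannot be told apart in that comparison. A recovery experiment of 8 libraries held 4 groups of 2: cells that survived 48 h in 100 nM quizartinib, such survivors after 13 d and after 30 d in drug-free medium, and untreated cells. All groups come from 1 cell line, and quizartinib doses differed between the experiments, so no value is compared across them. Nothing in the labels says whether replicates were separate cultures, so each p measures only the spread between these libraries.

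GIPR encodes the receptor for glucose-dependent insulinotropic polypeptide (GIP), an incretin hormone released by the gut after a meal. It is a class B1 G protein-coupled receptor that acts through Gs, adenylate cyclase and cyclic AMP, and it is best known in pancreatic islets and adipose tissue. AOC1 encodes diamine oxidase, a secreted copper-containing amine oxidase that breaks down histamine and the polyamine precursor putrescine, and it is best known in intestine, kidney and placenta. RNA levels alone were measured here, not receptor, enzyme, ligand or metabolite.

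GIPR lies on the forward strand of chromosome 19 at chr19:45668244-45683724 (GRCh38, GENCODE 29, ENSG00000010310), with 8 annotated transcripts, 4 of them coding. AOC1 lies on the forward strand of chromosome 7 at chr7:150824627-150861504 (ENSG00000002726), with 7 transcripts, 6 of them coding. The promoters are shown because both genes moved together with the drug. Each window runs from 250 bases before to 50 after the RefSeq start on GRCh38.p14 and is written on the forward strand. The GIPR window is chr19:45667971-45668270 and the AOC1 window is chr7:150852267-150852566. Capitals mark matches to GGGCGG, the GC box, on either strand, and in AOC1 also a match to TGACG, the short cAMP response element, on the reverse strand.

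GIPR promoter: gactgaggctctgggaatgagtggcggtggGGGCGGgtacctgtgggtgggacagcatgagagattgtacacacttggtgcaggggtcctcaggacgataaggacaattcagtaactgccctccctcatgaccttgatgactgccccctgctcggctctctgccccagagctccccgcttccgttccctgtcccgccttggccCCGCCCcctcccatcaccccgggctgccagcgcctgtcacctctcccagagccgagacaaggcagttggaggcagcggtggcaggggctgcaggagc
AOC1 promoter: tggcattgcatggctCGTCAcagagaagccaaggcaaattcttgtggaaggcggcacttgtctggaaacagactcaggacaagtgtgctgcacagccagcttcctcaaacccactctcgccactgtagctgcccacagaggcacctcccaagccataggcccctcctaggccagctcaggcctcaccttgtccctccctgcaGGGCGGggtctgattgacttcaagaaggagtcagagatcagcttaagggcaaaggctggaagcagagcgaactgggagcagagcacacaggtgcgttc

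The GIPR window held GGGCGG on the forward strand at -220 from the start and on the reverse strand at -47. The AOC1 window held it on the forward strand at -48, and TGACG on the reverse strand at -235. GGGCGG stands in 45.0% and TGACG in 24.6% of 35116 RefSeq promoter windows of this length, counting both strands. Neither window held TTCNNNGAA (the STAT-type GAS element, in 7.7% of windows), GTAAACA (FOXO, 3.4%), CACGTG (E-box, 7.3%), TATAAA (the core of the TATA-box, 11.5%), TGACGTCA (the full cAMP response element, which contains TGACG, 1.8%) or the full palindromic glucocorticoid response element (in 1 window). These are matches of letters and not sites of binding. GC content was 65.0% for GIPR and 57.7% for AOC1, against a median of 58.7% over all windows, and the windows held 12 and 6 CpG dinucleotides, against a median of 14. GENCODE 29 starts 3 AOC1 transcripts upstream of this window, the first of them 27890 bases before the RefSeq start, and which start was used was not measured.

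The microRNA gene MIR642A lies inside GIPR on the same strand at chr19:45674928-45675024. It is spanned by 5 of the 8 GIPR transcripts and overlapped by an exon of 0 of them, so it is intronic. Its mature sequences from RefSeq are shown because its host gene is one of the pair, with the seed (bases 2 to 8) in capitals; the seeds of the arms differ.

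hsa-miR-642a-5p: gUCCCUCUccaaaugugucuug
hsa-miR-642a-3p: aGACACAUuuggagagggaacc

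The libraries differed in ways that touch these values. Total counts of the drug experiment ran from 14795190 to 24990476. The small nuclear and cytoplasmic RNAs 7SK and 7SL took 16.02% to 31.6% of the counts in libraries with quizartinib, against 9.73% to 12.41% in those without, and the highest share was in replicate 3 of the 48 h combination; its part in the results was not tested. The recovery values came as FPKM, a level scaled for gene length and sequencing depth, with no counts. Replicate 2 of 13 d off drug stood apart there, with summed FPKM of 3714051, against 2240874 to 2547791 in the other libraries. Markers of myeloid leukaemia cells were in place, with all 10 at 1 FPKM or more in at least 1 library. FLT3 reached 406 FPKM. In the drug experiment 9 of the 10 myeloid markers were given, and their summed level was 1570 to 1620 CPM in quizartinib at 48 h and 1100 to 1250 CPM in DMSO. Of the erythroid markers HBB and HBA1 were listed at 0, and the summed B cell markers were 2.72 to 4.24 FPKM in survivors and 1.12 to 1.38 FPKM in untreated cells.

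Nearly all defining markers of the tissues where the 2 genes are best known stayed under 1 FPKM. Of 6 enterocyte, 5 islet, 5 adipocyte, 5 trophoblast and 4 kidney tubule markers, 1 reached 1 FPKM in any library, TFAP2C of the trophoblast list at 2.8 FPKM. KRT20, INS, CHGA and FABP4 were listed at 0 throughout the recovery experiment. In the drug experiment 4 markers of these lists had counts. At 48 h their CPM ranges were 0.513 to 0.665 in quizartinib against 0.0454 to 0.393 in DMSO for CDX2 (enterocyte), 0.205 to 0.358 against 0.0437 to 0.0457 for PLIN1 (adipocyte), 7.14 to 12.5 against 1.69 to 3.13 for CUBN (kidney tubule) and 0.717 to 1.18 against 0.873 to 2.04 for TFAP2C. CDX2, PLIN1 and CUBN rose with quizartinib at 48 h (log2 fold changes 1.37, 2.4 and 2.04; edgeR adjusted p 0.0311, 0.00451 and 3.1e-07). Their part in the rises of GIPR and AOC1 was not tested.

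Every library with quizartinib held more GIPR RNA than any without it. The genes were chosen on such a rise, and the share of all genes separated in this way was not counted. Levels of the drug experiment are CPM, counts scaled to library size by TMM, and are not adjusted for gene length. GIPR stood at 75.3, 75.5 and 65.0 CPM in quizartinib at 5 d, at 68.5, 69.9 and 43.6 CPM in quizartinib at 48 h, and at 8.08, 8.31 and 10.1 CPM in DMSO. The groups with and without the drug lay far apart, and replicate 3 of the 48 h group lay below the other 2 of its group. The log2 fold change over DMSO was 3.03 ± 0.18 (SE) at 5 d and 2.78 ± 0.18 at 48 h, ranks 254 and 259 from the highest of 16430 genes. Without the 48 h replicate 3 of quizartinib the 48 h value was 2.97.

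AOC1 was nearly silent without the drug. It stood at 13.8, 12.2 and 14.5 CPM in quizartinib at 5 d, at 14.3, 13.7 and 15.8 CPM in quizartinib at 48 h, and at 0.959, 0.636 and 1.22 CPM in DMSO. The DMSO values rest on 21, 14 and 28 counts, so the fold rests on few reads. The log2 fold change over DMSO was 3.83 ± 0.23 (SE) at 5 d and 3.94 ± 0.23 at 48 h, ranking 107 and 71 of 16430 genes. In the combination over DMSO at 48 h it was 2.85 for AOC1 and 2.44 for GIPR, with the DMSO libraries shared by all these comparisons. Quizartinib at 48 h moved much of the measured RNA, with 29.0% of genes called higher and 30.4% called lower by edgeR at an adjusted p under 0.05. In bulk RNA, more cells with a transcript and more transcript per cell cannot be told apart.

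**Figure D1:**
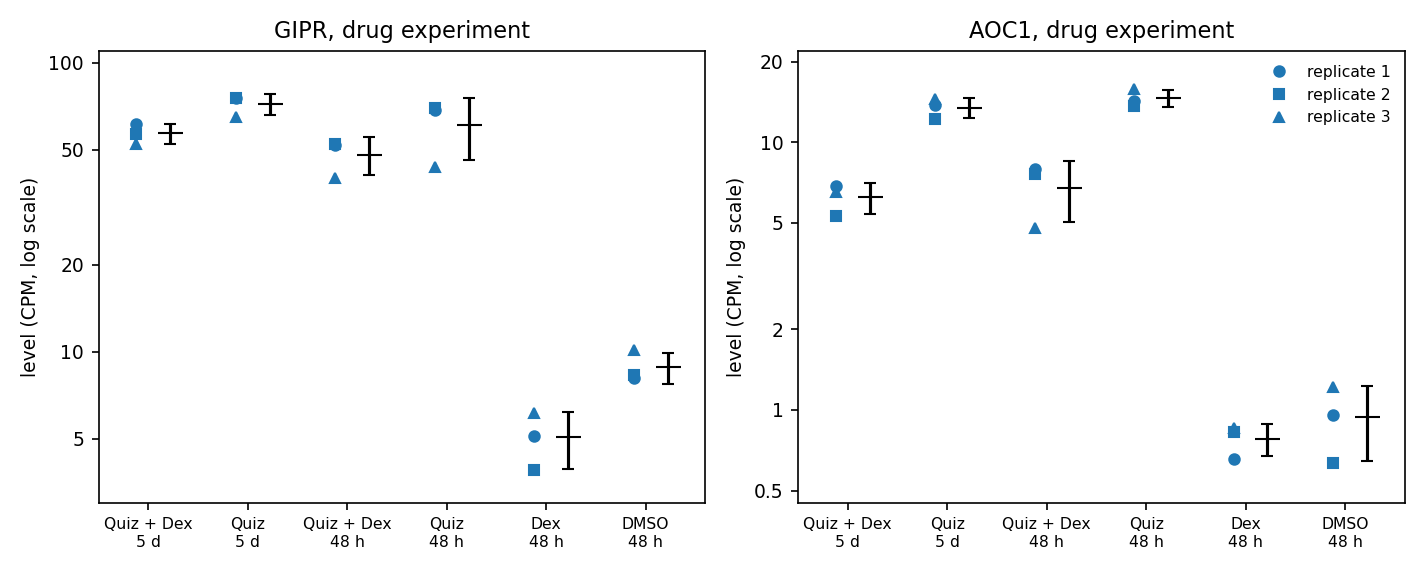
GIPR and AOC1 levels (CPM, log scale) in each of the 18 drug libraries. Symbols are the 3 replicates and bars are the mean ± SD of a group. Every library with quizartinib lies above every library without it for both genes, which were chosen on such a rise.

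With dexamethasone present, both genes were again higher with quizartinib. The combination libraries took part in the choice of the genes as high with quizartinib. That choice favours a rise here, so the p-values of this comparison are no independent support. GIPR stood at 52.1, 52.2 and 39.9 CPM in the 48 h combination, against 5.12, 3.91 and 6.13 CPM in dexamethasone alone. AOC1 stood at 7.94, 7.62 and 4.78 CPM in the combination, against 0.656, 0.825 and 0.857 CPM in dexamethasone alone. Neither gene's groups overlapped, and replicate 3 of the combination was the lowest of its group for both. The log2 fold change was 3.24 ± 0.19 (SE) for GIPR and 3.12 ± 0.24 for AOC1 (edgeR's quasi-likelihood test, Benjamini-Hochberg adjusted p = 1.6e-10 and 4e-09, n = 3 each). In this comparison 33.4% of all genes were called higher and 32.3% lower, so a call alone sets neither gene apart. Leaving out each replicate in turn gave 3.1 to 3.4 for GIPR and 2.96 to 3.29 for AOC1.

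Dexamethasone alone lowered GIPR, while a change in AOC1 was not detected. GIPR averaged 5.05 ± 1.12 CPM in dexamethasone and 8.83 ± 1.1 CPM in DMSO (SD, n = 3 each), with no overlap. Its log2 fold change was -0.8 ± 0.19 (SE; edgeR adjusted p = 0.0111), in a comparison with 5.5% of genes called higher and 6.63% called lower. The call was lost without replicate 2 of dexamethasone, the lowest at 3.91 CPM (-0.65, edgeR adjusted p = 0.0574), and with only the 2 groups fitted (-0.79, adjusted p = 0.0965). AOC1 averaged 0.779 ± 0.108 CPM in dexamethasone and 0.939 ± 0.294 CPM in DMSO, and the groups overlapped. The change was -0.28 on the log2 scale with a 95% interval of -0.86 to 0.31 (edgeR adjusted p = 0.62), on 15 to 19 counts per dexamethasone library. The kidney tubule marker CUBN was lower in dexamethasone too, at 1.22 ± 0.0465 CPM in dexamethasone and 2.48 ± 0.732 CPM in DMSO (-1.02, edgeR adjusted p = 0.01), and its part in the GIPR result was not tested. The DMSO libraries also took part in the choice of the genes.

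Dexamethasone on top of quizartinib lowered AOC1 at both times. At 48 h AOC1 averaged 6.78 ± 1.74 CPM in the combination and 14.6 ± 1.09 CPM in quizartinib alone (SD, n = 3 each). The groups did not overlap, and the log2 fold change was -1.1 ± 0.19 (SE; edgeR adjusted p = 0.00069), where 5.62% of genes were called higher and 4.63% lower. Without replicate 3 of the combination, the library with the highest share of 7SK and 7SL, it was -0.9 (edgeR adjusted p = 0.00344). At 5 d AOC1 stood at 6.88, 5.32 and 6.52 CPM in the combination, against 13.8, 12.2 and 14.5 CPM in quizartinib alone. That difference was -1.11 ± 0.19 on the log2 scale (SE; edgeR adjusted p = 0.00088), with 8.64% of genes called in either direction. Both the quizartinib and the combination libraries took part in the choice of the genes as high. These tests, and those of GIPR below, are thus not independent of it. How far that choice moved the differences was not tested.

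For GIPR, adding dexamethasone to quizartinib made no difference that passed the test in the fit of all 18 libraries. At 48 h it averaged 48.1 ± 7.07 CPM in the combination and 60.7 ± 14.8 CPM in quizartinib (SD, n = 3 each), and the groups overlapped through replicate 3 of quizartinib. The difference was -0.33 on the log2 scale with a 95% interval of -0.68 to 0.01 (edgeR adjusted p = 0.248). Without that replicate it was -0.53 and passed (edgeR adjusted p = 0.0327), and it was -0.4 without all 4 libraries numbered 3 of 48 h (adjusted p = 0.0129). At 5 d GIPR stood at 61.5, 56.6 and 52.5 CPM in the combination, against 75.3, 75.5 and 65.0 CPM in quizartinib, with no overlap. The difference was -0.34 (interval -0.68 to 0.01; edgeR adjusted p = 0.247), and with only these 2 groups in the fit the same value passed (adjusted p = 0.0164). Whether dexamethasone acts differently on the 2 genes, or differently with and without quizartinib, was not tested.

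Time in the drug made no difference that passed the test for either gene. The libraries of both times took part in the choice of the genes as high, so these tests are not independent of it. In quizartinib, 5 d over 48 h gave a log2 fold change of 0.25 for GIPR (95% interval -0.1 to 0.59; edgeR adjusted p = 0.479) and -0.11 for AOC1 (-0.49 to 0.27; adjusted p = 0.821), where 3.16% of genes were called. In the combination GIPR averaged 56.9 ± 4.49 CPM at 5 d and 48.1 ± 7.07 CPM at 48 h (SD, n = 3 each), and its groups just missed each other. There, 5 d over 48 h gave 0.24 for GIPR (-0.11 to 0.59; edgeR adjusted p = 0.403) and -0.12 for AOC1 (-0.53 to 0.28; adjusted p = 0.748), with 9.26% of genes called. By the labels dexamethasone was added on day 3 in the 5 d combination and was present for 48 h in the 48 h combination. The 5 d combination thus had quizartinib alone first.

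The order of the group means was not the same for the pair. For GIPR it ran, high to low, from quizartinib at 5 d through quizartinib at 48 h, the combination at 5 d, the combination at 48 h and DMSO to dexamethasone. Among neighbours in that order, quizartinib at 48 h overlapped the group on either side of it. For AOC1 both quizartinib groups came first and overlapped, both combination groups came next and overlapped, and DMSO and dexamethasone came last and overlapped.

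In the recovery experiment both genes were high in survivors and lower in cells grown without the drug. In the untreated cells GIPR stood at 28 and 12.5 FPKM, in survivors at 278 and 181 FPKM, after 13 d off drug at 38.9 and 91.7 FPKM, and after 30 d at 27.2 and 17.3 FPKM. The survivors were thus above all other libraries, the 13 d libraries lay between, and the 30 d values fell within the range of the untreated cells. The log2 fold change of survivors over untreated, on the scale of log2(FPKM + 1) used in this experiment, was 3.51 ± 0.54 (SE), rank 129 of 18098 genes.

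AOC1 was lower by far at each stage. It stood at 0.287 and 0.209 FPKM in untreated cells, at 7.01 and 1.86 FPKM in survivors, at 1.5 and 2.09 FPKM after 13 d off drug, and at 0.674 and 0.295 FPKM after 30 d. The survivor replicates differed widely, and the lower of them lay within the range of the 13 d values. Survivors over untreated gave 1.94 ± 0.5 (SE) and rank 608 of 18098. At such low levels the added 1 FPKM shrinks the fold, which was 2.49 with 0.5 and 3.43 with 0.1 FPKM added. Here 8.14% of genes were called higher and 6.39% lower by limma at an adjusted p under 0.05.

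**Figure D2:**
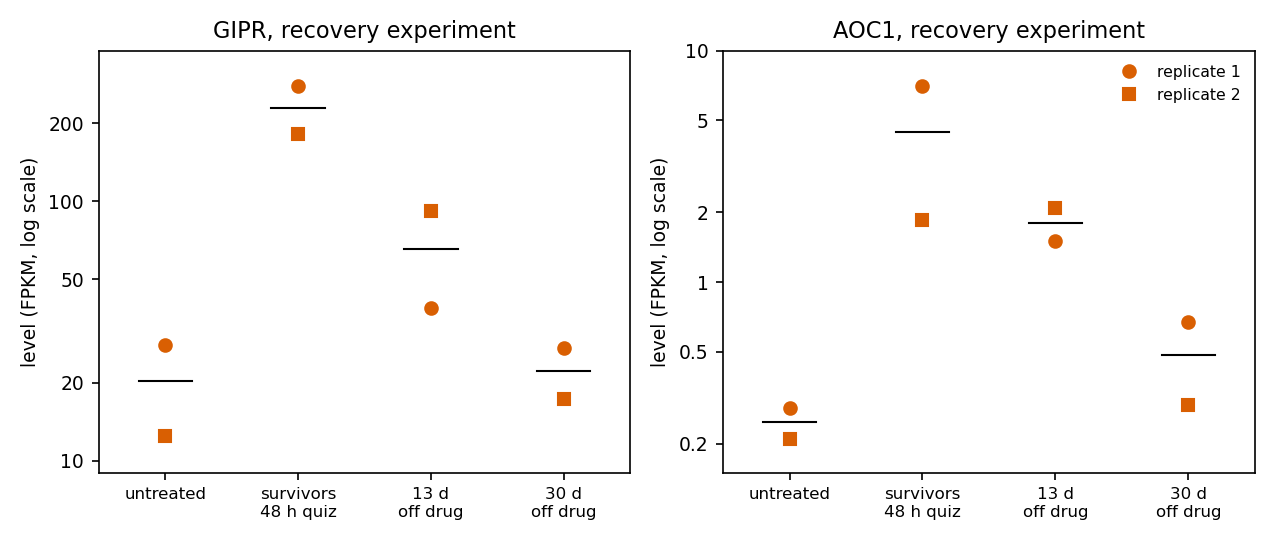
GIPR and AOC1 levels (FPKM, log scale) in the 8 recovery libraries, by stage. Symbols are the 2 replicates and lines are their means; both survivor libraries of GIPR lie above all others, while a survivor library of AOC1 lies among those at 13 d.

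GIPR was lower after 30 d off drug than in survivors, a call that needed all 4 libraries. The survivor libraries are those in which both genes were chosen as high, so tests against them are not independent of that choice, which favours a fall. Its log2 fold change was -3.31 ± 0.54 (SE; limma adjusted p = 0.0303), where 10.2% of genes were called. Leaving out any 1 of the 4 libraries gave -3.62 to -3.0 and limma adjusted p of 0.117 to 0.165, and without the filter on low values the adjusted p was 0.0598. AOC1 changed by -1.7 (95% interval -2.9 to -0.5; limma adjusted p = 0.0721) in the same comparison, and its groups did not overlap. After 13 d off drug GIPR differed from survivors by -1.89 (interval -3.2 to -0.58; limma adjusted p = 0.118) and AOC1 by -0.78 (-1.98 to 0.41; adjusted p = 0.385), with 0.845% of genes called. Without replicate 2 of 13 d off drug, the library that stood apart, the GIPR difference was -2.5 and passed (limma adjusted p = 0.0439).

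Against untreated cells, whose libraries also took part in the choice, neither gene passed the test at 13 d or 30 d off drug. At 13 d the log2 fold change was 1.62 for GIPR (95% interval 0.31 to 2.93; limma adjusted p = 0.161) and 1.16 for AOC1 (-0.04 to 2.35; adjusted p = 0.235), and 0.381% of genes were called. All 13 d libraries lay above all untreated libraries for both genes. At 30 d it was 0.2 for GIPR (-1.11 to 1.51) and 0.24 for AOC1 (-0.96 to 1.44; limma adjusted p = 1 for both), with 0.127% of genes called. The AOC1 libraries at 30 d were both above the untreated ones, and the GIPR libraries overlapped them. The share of all genes separated in this way was not counted, and groups of 2 can separate without a change. Between 30 d and 13 d off drug GIPR differed by -1.42 (-2.73 to -0.11; limma adjusted p = 0.225) and AOC1 by -0.92 (-2.11 to 0.28; adjusted p = 0.353), with 0.403% of genes called. The summed level of the 3 T and NK cell markers was 64.1 to 115 FPKM at 13 d, against 23 to 41.3 FPKM in the other recovery libraries, through NKG7 alone, since CD3D and CD3E stayed under 1 FPKM. Its part in the 13 d values was not tested.

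**Figure D3:**
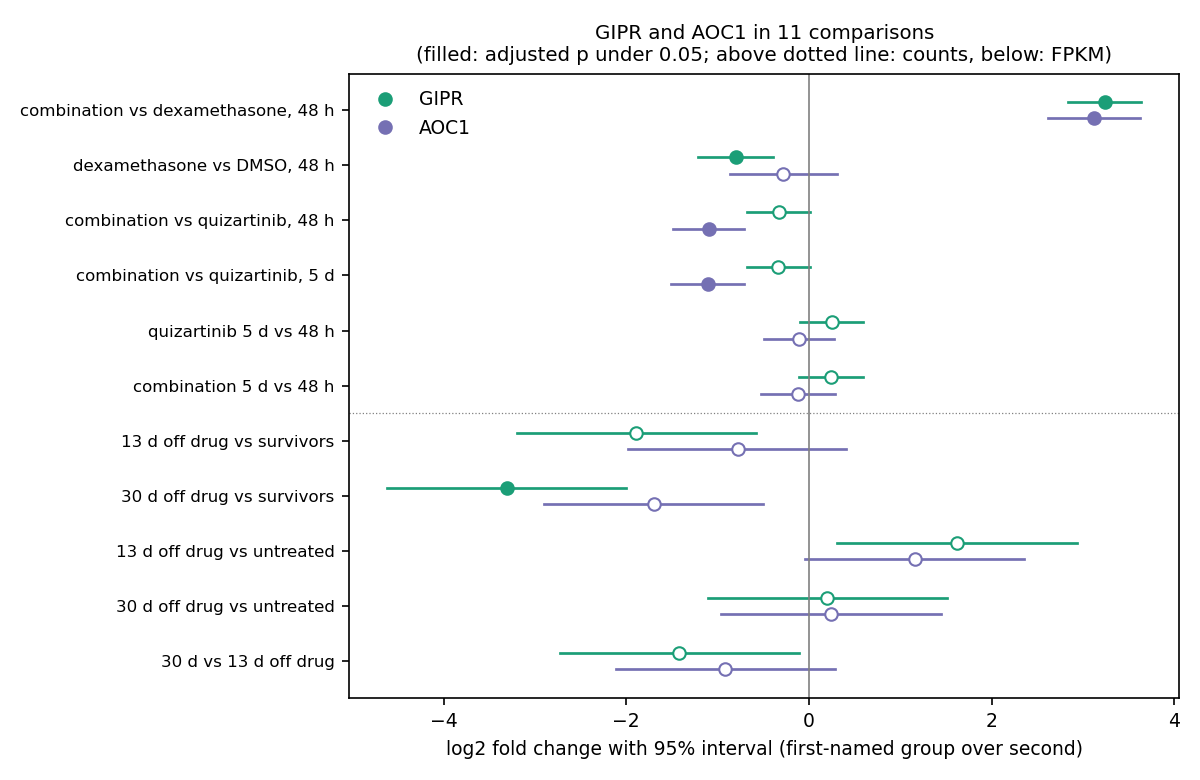
Log2 fold change (points) with 95% interval (lines) of GIPR and AOC1 in the 11 comparisons other than those that chose them, nearly all of which share libraries with that choice. Filled points passed the adjusted test; in the drug experiment quizartinib on top of dexamethasone gave 3.24 and 3.12, and dexamethasone on top of quizartinib gave -1.1 and -1.11 for AOC1.

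Another scaling of the FPKM table changed no call of GIPR or AOC1. The median of all genes in the recovery fit was 0.18 for survivors over untreated, -0.15 for 30 d and -0.18 for 13 d off drug over survivors. After TMM scaling of the FPKM table those medians were 0.05, -0.02 and 0.0. Under that scaling GIPR at 30 d off drug over survivors was -3.15 (limma adjusted p = 0.0307). At 13 d off drug over survivors, -1.89 became -1.66 for GIPR and -0.78 became -0.62 for AOC1. In FPKM, which allows for length, GIPR exceeded AOC1 by 26 to 97.8 times within the 8 recovery libraries.

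The intronic MIR642A has values in the recovery experiment. It was at 17.2 FPKM and listed at 0 in untreated cells, at 66.8 and 23.4 FPKM in survivors, listed at 0 and at 22.8 FPKM after 13 d off drug, and listed at 0 in both libraries after 30 d. In each group the higher value stood in the library with the higher GIPR level, apart from 30 d, where both were listed at 0. Reads of the microRNA and of unspliced GIPR RNA cannot be told apart here, and a listed 0 may be a failed estimate.

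The 3 nearest protein-coding genes on each side of GIPR and AOC1 were taken from GENCODE 29. Around GIPR 5 of 6 were tested, and quizartinib over DMSO at 48 h called 0 higher and 3 lower, where 29.0% of all genes were called higher and 30.4% lower. With so few neighbours these counts set neither locus apart, and a difference between the loci was not tested. SNRPD2, a core spliceosome protein gene 3730 bases downstream, averaged 93.0 ± 16.8 CPM in quizartinib and 162 ± 12.5 CPM in DMSO (SD, n = 3 each; log2 fold change -0.8, edgeR adjusted p = 3.6e-05). QPCTL, a Golgi glutaminyl cyclase gene, gave -0.65 and OPA3, a mitochondrial protein gene, -0.26. Without the 4 libraries numbered 3 of 48 h, 2 of the 5 were called higher and 3 lower. In survivors over untreated 0 of 5 were called by limma.

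Around AOC1 6 of 6 neighbours were tested, and 2 rose with quizartinib at 48 h, the adjacent membrane protein genes TMEM176A and TMEM176B, 19507 and 23267 bases upstream, and 0 fell, beside the same 29.0% and 30.4% of all genes. TMEM176B averaged 5.35 ± 0.417 CPM in quizartinib and 0.709 ± 0.58 CPM in DMSO (SD, n = 3 each; log2 fold change 2.89 ± 0.41 SE, edgeR adjusted p = 1.1e-05). TMEM176A averaged 1.02 ± 0.234 CPM in quizartinib and 0.119 ± 0.0482 CPM in DMSO (3.03 ± 0.51, edgeR adjusted p = 6.2e-05). They overlap on opposite strands, and whether counting used strand is not stated, so their reads may not be separable. TMEM176B, like AOC1, was lower in the combination than in quizartinib at 48 h, at 2.31 ± 0.147 CPM and 5.35 ± 0.417 CPM (log2 fold change -1.21, edgeR adjusted p = 0.0442). That call was lost when any 1 of the 6 libraries was left out. In survivors TMEM176B stood at 2.98 and 5.83 FPKM, against 0.217 and 0.334 FPKM in untreated cells, and did not pass the test (limma adjusted p = 0.0986). KCNH2, NOS3, ATG9B and GIMAP5 were not called at 48 h, with log2 fold changes of -0.55 to 0.21.

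**Figure D4:**
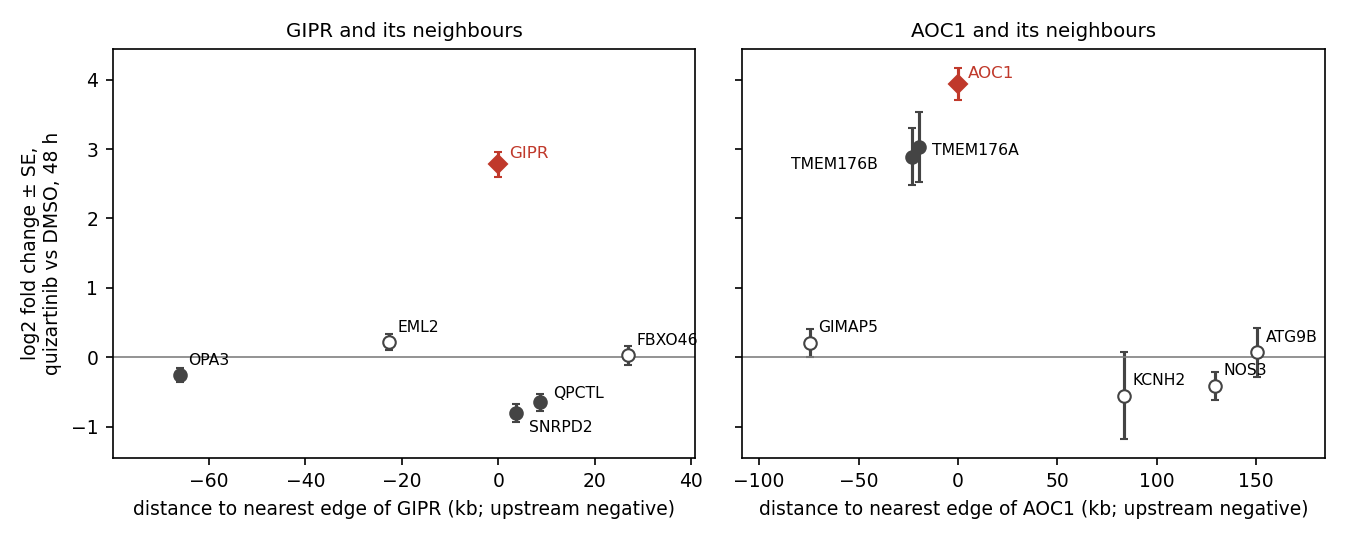
Log2 fold change ± SE of quizartinib over DMSO at 48 h for GIPR, AOC1 and the tested neighbours, by distance in kb to the nearest edge of the gene. Filled circles passed the adjusted test and diamonds are the 2 chosen genes, given without a test; TMEM176A and TMEM176B lie near 3 on the log2 scale beside AOC1, and no GIPR neighbour is above 0.22.

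The relatives of GIPR and its ligand were hardly detected. Of the 14 other class B1 receptors listed, 0 were among the 16430 genes given for the drug experiment, and 0 reached 1 FPKM in any recovery library. Absence there is not a count of 0. CRHR2 was the highest at 0.65 FPKM, and GIP was listed at 0 throughout. Of the 23 genes of the incretin and class B1 list 3 were tested, and at 48 h quizartinib over DMSO called 0 higher and 2 lower, where 29.0% of all genes were called higher and 30.4% lower, with a median log2 fold change of -0.43 beside 0.02 for all genes. DPP4, the protease that inactivates GIP, averaged 1.61 ± 0.0983 CPM in quizartinib and 3.29 ± 0.335 CPM in DMSO (log2 fold change -1.03, edgeR adjusted p = 0.00941). It was lower still in the combination, at 0.0938 ± 0.0128 CPM, against 1.61 ± 0.0983 CPM in quizartinib (-4.03, edgeR adjusted p = 1.7e-05). That level is so low that the fold rests on few reads. Dexamethasone alone over DMSO lowered DPP4 too (-1.46, edgeR adjusted p = 0.00542). In survivors over untreated cells DPP4 did not change detectably (0.03, limma adjusted p = 0.983). Of the arrestins that bind activated receptors, ARRB2 fell by 0.43 on the log2 scale and ARRB1 gave -0.03 (edgeR adjusted p = 0.00268 and 0.84).

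The cAMP pathway below such receptors moved in both directions. Of 35 genes 29 were tested, and quizartinib over DMSO at 48 h called 11 higher and 6 lower (median 0.11 beside 0.02 for all genes), where 29.0% of all genes were called higher and 30.4% lower. ADCY4, an adenylate cyclase, averaged 13.7 ± 0.485 CPM in quizartinib and 2.91 ± 0.236 CPM in DMSO (log2 fold change 2.23, edgeR adjusted p = 2e-10), while ADCY1, another cyclase, fell by 2.28. PDE4B, a phosphodiesterase that degrades cAMP, rose by 2.43 (edgeR adjusted p = 0.00823), with DMSO values of 1.23 and 1.5 CPM in replicates 1 and 2 and a group mean of 5.63 ± 7.38 CPM. ADCY6 rose by 2.01. GNAS, the Gs subunit, did not change detectably, at 210 ± 7.65 CPM in quizartinib and 204 ± 9.79 CPM in DMSO (edgeR adjusted p = 0.66). With dexamethasone present, quizartinib called 13 higher and 6 lower, beside 33.4% and 32.3% of all genes (median 0.3 beside 0.05). In survivors over untreated limma called 6 of 27 higher and 0 lower, beside 8.14% and 6.39% of all genes (median 0.7 beside 0.18). ADCY4 was among them, at 16.8 and 16.3 FPKM in survivors against 1.86 and 2.43 FPKM in untreated cells.

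With quizartinib at 48 h, 11 of 20 tested genes of polyamine metabolism fell. Of 23 genes of polyamine metabolism 20 were tested, and quizartinib over DMSO at 48 h called 3 higher and 11 lower, where 29.0% of all genes were called higher and 30.4% lower, with a median log2 fold change of -0.59 beside 0.02 for all genes. SRM, spermidine synthase, averaged 50.2 ± 5.53 CPM in quizartinib and 168 ± 38.9 CPM in DMSO (-1.74, edgeR adjusted p = 4e-08). EIF5A, the factor that carries the spermidine-derived residue hypusine, fell by 1.72. DOHH, which completes that residue, fell by 1.56, and AGMAT, which can make putrescine from agmatine, fell by 2.22. ODC1, which makes putrescine, averaged 111 ± 18.1 CPM in quizartinib and 174 ± 9.21 CPM in DMSO (-0.65, edgeR adjusted p = 8.4e-05). The 3 called higher were AZIN2, PAOX and SAT2. Of these SAT2 rose by 0.96 and PAOX by 0.76 on the log2 scale (edgeR adjusted p = 1.5e-05 and 0.00162). With dexamethasone present, quizartinib called 3 higher and 13 lower, beside 33.4% and 32.3% of all genes (median -0.8 beside 0.05). In survivors over untreated limma called 0 of 22 higher and 4 lower, EIF5A, MTAP, SMS and SRM, beside 8.14% and 6.39% of all genes (median -0.25 beside 0.18).

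Of 15 other genes of histamine handling and amine oxidation 8 were tested, and quizartinib at 48 h called 2 higher and 3 lower, near the 29.0% and 30.4% of all genes (median -0.37 beside 0.02). ALDH2, an aldehyde dehydrogenase, averaged 8.62 ± 0.836 CPM in quizartinib and 1.08 ± 0.382 CPM in DMSO (log2 fold change 2.99, edgeR adjusted p = 6.8e-08). HNMT, the other main histamine-degrading enzyme, rose by 0.4, and the histamine receptors HRH1 and HRH2 fell by 1.94 and 0.97, as did ALDH9A1, an aldehyde dehydrogenase, by 0.53. HRH1 was low, at 0.251 ± 0.183 CPM in quizartinib and 0.967 ± 0.55 CPM in DMSO. MAOA, a monoamine oxidase, moved with dexamethasone, at 2.15 ± 0.432 CPM in dexamethasone and 0.104 ± 0.0655 CPM in DMSO (4.29, edgeR adjusted p = 0.00017). AOC3, a related copper amine oxidase, reached at most 1.35 FPKM and HDC, which makes histamine, at most 0.138 FPKM. In survivors limma called ALDH2 and HNMT higher among 4 tested and 0 lower, beside 8.14% and 6.39% of all genes. The calls of survivors over untreated rest on all 4 libraries, since leaving out any 1 left 11 to 36 of 2630 genes called.

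**Figure D5:**
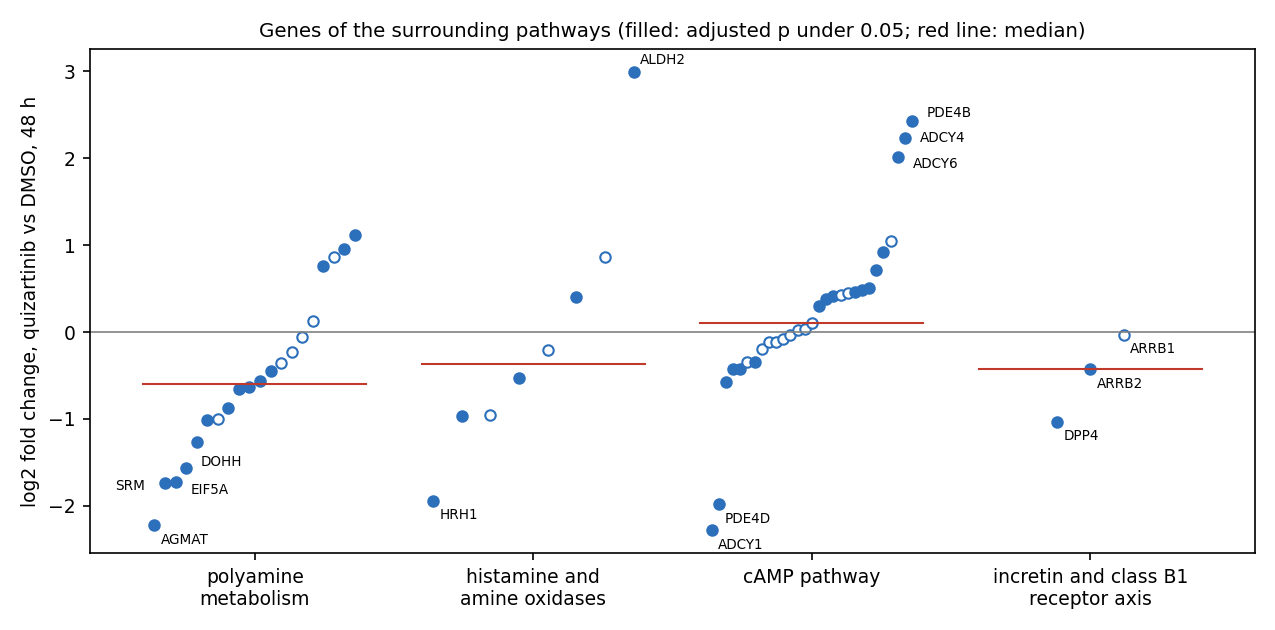
Log2 fold change of quizartinib over DMSO at 48 h for the tested genes of 4 lists around GIPR and AOC1, ordered by value within a list. Filled points passed the adjusted test and red lines are list medians, at -0.43 for the incretin and class B1 list, 0.11 for the cAMP pathway, -0.59 for polyamine metabolism and -0.37 for histamine and amine oxidases.

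On the scales used here, other genes came closer to each of the pair than the 2 came to each other. Likeness was the root mean square difference of log2 fold changes over 8 comparisons, each against DMSO or untreated cells, among 12324 genes; these comparisons share control libraries. GIPR and AOC1 differed by 0.8, and 71 genes were closer to GIPR and 62 closer to AOC1. The recovery values used log2(FPKM + 1), which shrinks the folds of AOC1. Survivors over untreated gave 3.51 for GIPR and 1.94 for AOC1, but 3.57 and 3.43 with 0.1 FPKM added. At 13 d off drug over untreated, 1.62 and 1.16 became 1.67 and 2.44, and at 30 d 0.2 and 0.24 became 0.21 and 0.68. Distances with another added value were not computed. Closest to GIPR were ST8SIA6, a sialyltransferase gene (0.276), CATSPERG (0.319), ABCA7, a lipid transporter gene (0.355), MS4A4E (0.358) and ZNF404 (0.423). Closest to AOC1, at wider distances, were REPS2, an endocytosis adaptor gene (0.488), MPZL2, an adhesion gene (0.495), AC107884.1 (0.522), TCF7, a transcription factor of the Wnt pathway (0.523), and SLC2A14 (0.532). MS4A4E and SLC2A14 have close paralogs, so their reads may be shared. ABCA7 averaged 274 ± 64.0 CPM in quizartinib at 48 h, 22.4 ± 2.47 CPM in dexamethasone and 44.6 ± 6.28 CPM in DMSO, the same order of these 3 groups as GIPR. REPS2 stood at 7.79 and 6.63 FPKM in survivors, against 0.266 and 0.159 FPKM in untreated cells. ABCA7 and REPS2 were picked by these same comparisons, so such likeness follows from the choice and is no further support. Set by size of rise alone, 5 of 13550 genes in both experiments, GIPR included, were at least as high as GIPR in both, and 15, AOC1 included, at least as high as AOC1.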

How the data were processed

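RNA was extracted with the mirVana kit, made into NEXTflex Rapid Directional libraries and sequenced on an Illumina HiSeq, per the labels' protocols. The authors deposited whole-number counts per gene for the drug experiment; the submitters' processing notes list STAR 2.7.3 and RSEM beside CASAVA, DESeq2 and edgeR, on GRCh38, and how estimates became whole numbers is not given in the sources used here. They deposited FPKM per gene for the recovery experiment, per the file headers; the notes name CASAVA, TopHat2 2.0.9 and Cuffdiff with hg38, and an FPKM of 0 may be a failed estimate. Total counts per library ran from 14795190 to 24990476, and the FPKM tables give no depth.

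Sample labels gave the groups and the replicate numbers. Counts were scaled by TMM and fitted with edgeR 4.0.16 (quasi-likelihood, all 18 libraries; filterByExpr kept all 16430 genes; R 4.3.3). FPKM was fitted with limma 3.58.1 (trend) as log2(FPKM + 1) over 8 libraries, for the 18098 genes that reached 1 FPKM in 2 libraries. Calls used a Benjamini-Hochberg adjusted p under 0.05 over all genes of a comparison. SE in the edgeR fit is the log2 fold change divided by the square root of F; intervals are 95% from the t distribution of the model. Both fits were run on simulated data, drawn without an effect shared by replicate number. The changes planted for the recovery fit were in genes more abundant than AOC1. The outcome is not given here, so it is no support for the results. GIPR and AOC1, the lists and the markers were chosen with earlier results of these data known, so they are no independent support. From each list up to 4 called genes with the largest change at 48 h in quizartinib over DMSO, and family members, are named. ODC1, AZIN2, PAOX, SAT2, GNAS, ARRB1, HNMT, MAOA and the 4 non-myeloid markers with counts were named after their values were seen. Replicates were compared and none was a duplicate (chi-square per degree of freedom 3.34 to 75.67). Alternatives were other scaling, DESeq2 1.42.0, filters, pseudocounts, a replicate block, fits of the compared groups alone and leaving out libraries. Plots used matplotlib 3.10.9. Promoters and microRNAs are from RefSeq (GRCh38.p14), where both genes matched; proteins were not analysed here.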

Additional observations from a re-analysis of the deposited data

How the results depend on the processing

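AOC1 kept its reported result in 159 of its alternative values and GIPR in 149. A kept result had the same direction and was again called or again not called. In the comparisons that chose the genes, which have no call, it moved by less than its SE. Of the rest, AOC1 moved in 8 and turned sign in 1. GIPR moved in 5, turned sign in 2, lost its call in 7 and gained one in 5. These follow. For GIPR, dexamethasone over DMSO lost its call with only the groups compared (-0.79) and ranged from -0.96 to -0.65 when 1 library was left out. The combination over quizartinib at 48 h ranged from -0.53 to -0.21 without 1 library and gave -0.4 without the 4 libraries numbered 3 of 48 h, an alternative added after the data were seen; at 5 d it gave -0.34 with only the groups compared and -0.33 without those 4, both past the threshold. Without those 4, GIPR in quizartinib over DMSO at 48 h was 3.07 and in the combination over DMSO 2.67, and AOC1 in the combination over DMSO 3.28. Leaving out 1 library gave 2.66 to 2.97 for GIPR and 3.73 to 4.18 for AOC1 in quizartinib over DMSO at 48 h, 3.62 to 4.07 for AOC1 at 5 d, 2.63 to 3.08 for AOC1 in the combination over DMSO, and -0.32 to 0.01 for AOC1 in the combination at 5 d over 48 h, the last a change of sign near 0. In the recovery experiment it gave, for GIPR, -2.5 to -1.28 (13 d over survivors), -3.62 to -3.0 (30 d over survivors), -0.35 to 0.75 (30 d over untreated, turned without replicate 2 of untreated at -0.35 and without replicate 1 of 30 d at -0.12) and 2.96 to 4.06 (survivors over untreated), and for AOC1 1.2 to 2.68 (survivors over untreated), where pseudocounts of 0.1 and 0.5 gave 3.43 and 2.49. Without the filter GIPR at 30 d over survivors was -3.31 and no longer passed. The cause of these changes was not tested.

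Replicate numbers were partly shared across the drug groups. Same-numbered deviations from the group means correlated at -0.082 to 0.635 (median 0.11), and differently numbered ones at -0.441 to 0.291 (median -0.073). Pairs numbered 3 were all positive, at 0.078 or more, and 16 of 18 drug libraries correlated best with their own number. In the recovery experiment same-numbered pairs gave 0.012 to 0.086. The labels do not say what a number marks, and the main fits left it out. A replicate block changed no call of GIPR or AOC1 (AOC1 in the combination over quizartinib -1.09 at 48 h and -1.12 at 5 d; GIPR at 30 d over survivors -3.31, limma adjusted p = 0.0494). It moved the count of called genes to 885, against 520, for quizartinib 5 d over 48 h, to 80, against 153, for 13 d and 763, against 1845, for 30 d over survivors, and to 27, against 69, and 15, against 23, for 13 d and 30 d over untreated.

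Other counts that moved by over 1.5 times were, with only the groups compared, 579 against 1993 (dexamethasone over DMSO), 2430 against 1419 (combination over quizartinib, 5 d) and 866 against 520 (quizartinib 5 d over 48 h), the last also 923 with DESeq2. Without the 4 libraries they were 2758, 1068 and, for the combination at 5 d over 48 h, 2577 against 1521. Without the FPKM filter they were 401 against 1845 (30 d over survivors), 32 against 69 (13 d over untreated) and 727 against 2630 (survivors over untreated), and a pseudocount of 0.1 gave 14 against 23 (30 d over untreated). Leaving out replicate 2 of 13 d off drug gave 2695 against 153 (13 d over survivors), and leaving out replicate 1 of it 2231 against 69 (13 d over untreated) and 1733 against 73 (30 d over 13 d). The lowest counts without 1 library were 818 (combination over quizartinib, 5 d), 133 (quizartinib 5 d over 48 h), 607 (combination 5 d over 48 h), 11 and 16 (13 d and 30 d over survivors), 24 and 4 (13 d and 30 d over untreated), 26 (30 d over 13 d) and 11 (survivors over untreated). Depth limits AOC1 most, with 14 to 28 counts per DMSO library.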
